A study of Brassica napus with 15 samples.

Results

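The RNA stored in seeds of the winter oilseed rape (Brassica napus) accession C129 was compared with that of the accessions C033 and C032. The 6 libraries of quiescent seeds, at 0 and 2 hours after imbibition (hai), were taken from the 15 libraries of the series, which follow each accession to 72 hai. The C129 side held 2 libraries and the other side 4, and the 101040 coding genes of the table were used. In the germination assays of the study C129 was the earliest of these accessions, and C033 and C032 germinated later, although the study itself placed C129 and C033 together as high to medium performers and C032 as a low performer. No treatment or transgene separated the groups, which differed in genotype and, between 0 and 2 hai, in time in water at 20°C in the dark. Each library pooled 3 biological replicates of 30 seeds, so an accession had 1 library at each time.

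A mature seed carries RNA made during its development on the mother plant. This stored RNA survives drying, and in Arabidopsis many of these transcripts encode storage proteins, oil-body proteins, protective late embryogenesis abundant (LEA) proteins and small heat shock proteins, beside the machinery needed to restart protein synthesis. Germination is set by abscisic acid, which keeps the seed quiescent, and gibberellin, which promotes germination by removing DELLA repressors after binding its receptor GID1. B. napus is an allotetraploid with an A and a C subgenome, so most genes are present as homoeologous copies, and chromosomes A03 and C03, for example, share long stretches of related genes.

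Levels are in TPM, deposited by the authors, a unit scaled by transcript length and library total. The coding rows held 19360693 to 38502057 read equivalents per library (coverage times gene length over the read length), and 33885 to 37660 coding genes reached 1 TPM. The genes of the green seedling that were listed (PSAN, LHCB3, RBCS1A and LFNR1) did not exceed 2.19 TPM in quiescent seeds. The endosperm genes AGL62 and ZOU were listed at 0 in every library of quiescent seeds. The ovule gene STK did not exceed 0.0899 TPM there, whereas oil-body genes summed to 150 to 197 TPM. These values do not show whether endosperm tissue was present in the samples. Over the tested genes, C129 at 0 and 2 hai correlated with r = 0.976 over log2(TPM + 1), and the 0 and 2 hai libraries of C033 and C032 with 0.979 and 0.976.

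The 3 accessions stood at similar distances from each other. Over the 39171 tested genes, the correlation between libraries was 0.887 to 0.894 for C033 with C032, 0.899 to 0.909 for C033 with C129 and 0.884 to 0.893 for C032 with C129. These are descriptions across genes, which are not independent replicates. The stored RNA of C129 was spread over more genes. In C129 the 10 most abundant coding genes held 5.17% and 5.58% of coding TPM at 0 and 2 hai. In C033 they held 8.63% and 7.85%, and in C032 9.62% and 10.01%. For the 100 most abundant genes the shares were 19.5% and 19.0% in C129, 26.52% and 25.1% in C033, then 27.6% and 26.6% in C032. Both C129 libraries were below all 4 others at each of these ranks.

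**Figure D1:**
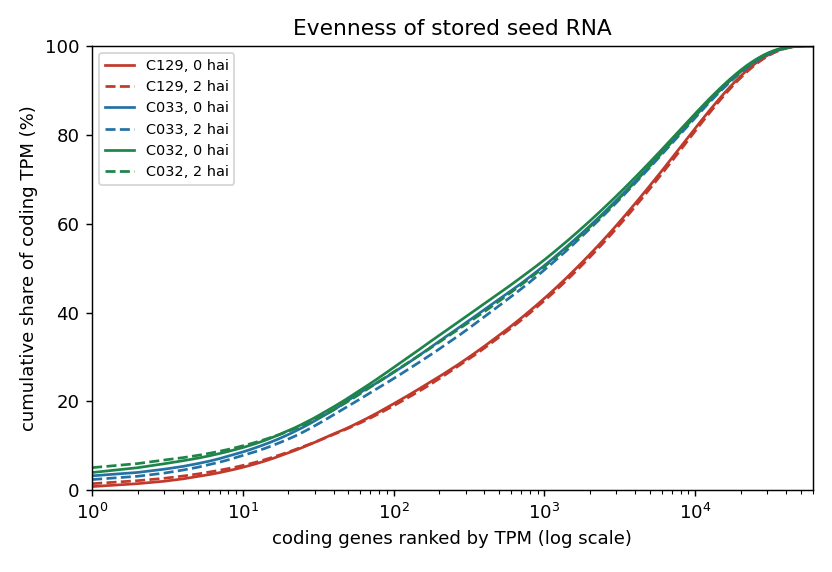
Cumulative share of coding TPM (%) against the rank of coding genes by TPM (log scale), 1 line for each library, solid at 0 hai and dashed at 2 hai. The C129 lines run below those of C033 and C032, with 43.2% and 42.7% of coding TPM in the first 1000 genes against 49.6% to 51.9%.

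The most abundant coding gene, BnaCnng12640D, had 6183 and 11389 TPM in C129, 22373 and 16004 TPM in C033, and 26927 and 36705 TPM in C032. Its levels did not overlap between the sides, but the difference of -1.54 (log2 scale, SE 0.40) did not pass the test (adjusted p = 0.0889). This gene enters the shares of the most abundant genes given above, which were not recomputed without it. The files give it no Arabidopsis match. Among the other 4 of the 5 most abundant genes, BnaA06g18100D was also lower in C129, at 2473 and 2241 TPM against 3886 to 5037 TPM, with an adjusted p of 0.0512. BnaA04g23790D, BnaC04g47570D and BnaC03g55840D overlapped between the sides or differed by less than 1 on the log2 scale. BnaC03g55840D, for example, had 4027 and 3498 TPM in C129 and 3630 to 4056 TPM in the others.

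With TPM as deposited, more genes were called higher than lower in C129, among them matches to the gibberellin-related factor GNC and to ribosomal protein RPS30, while a trypsin inhibitor gene and many abundant unnamed genes were lower. The test was a limma fit of log2(TPM + 1) on side and time, and calls needed both a difference over 1 on the log2 scale and an adjusted p (Benjamini-Hochberg) under 0.05. In this fit 811 genes (2.07% of those tested) were called higher in C129 and 450 (1.15%) lower. The direction of the whole table depends on the scaling. The median difference of all tested genes was 0.35 on the log2 scale with TPM as deposited, 0.23 when the coding genes of every library were given the same total and 0.00 with median-of-ratios scaling, and the calls became 538 higher and 479 lower, then 306 higher and 619 lower. Under all 3 scalings, 306 genes (0.781%) were called higher and 432 (1.1%) lower. With median-of-ratios scaling the lower group was thus the larger, and the values below are given on the deposited scale with the shift of 0.35 in mind. The share of coverage on non-coding rows moved with it, at 18.0% and 15.2% in C129 against 19.0% to 25.8% in the others, and its part in the result was not tested.

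All 811 and 450 called genes had levels that did not overlap between the 2 and 4 libraries. This is common in the table, since 46.3% of tested genes were non-overlapping and higher in C129 and 5.8% were non-overlapping and lower. The libraries of an accession at 0 and 2 hai are not independent samples of it. With accession as a random block, whose consensus correlation was 0.59, 234 genes (0.597%) were called higher and 209 (0.534%) lower, all of them among the calls above. With either C129 library left out, 0 genes were called higher and at most 1 lower, although 1420 and 1394 genes were higher and 681 and 714 lower at an unadjusted p under 0.05 with a difference over 1 in the limma fit. A call states that C129 stood apart from these 2 accessions, since there is 1 accession on the early side.

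**Figure D2:**
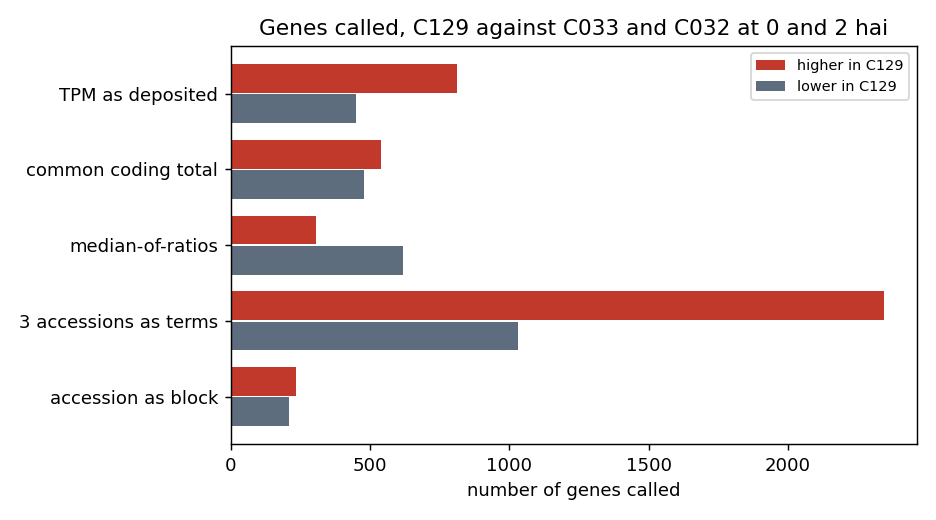
Number of genes called higher (red) or lower (grey) in C129 at 0 and 2 hai under 3 scalings of TPM and with 2 other ways of entering accession into the fit. The bars go from 811 higher and 450 lower with TPM as deposited to 306 and 619 with median-of-ratios scaling.

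Compared pair by pair, with accession and time as terms, each accession differed from each other in many genes. C129 was higher than C033 in 2740 genes (6.99%) and lower in 1201 (3.07%). It was higher than C032 in 3237 genes (8.26%) and lower in 1456 (3.72%). C033 was higher than C032 in 1880 genes (4.8%) and lower in 1857 (4.74%), the fewest calls of the 3 pairs on the deposited scale. The balance in the pairs with C129 turned with the scaling, since median-of-ratios values gave 1242 higher and 1839 lower against C033, and 1785 and 2235 against C032. With those values C033 was higher than C032 in 2008 genes and lower in 1973, and the pair of C129 and C033 had the fewest calls. These tests measure the spread between the 0 and 2 hai libraries of an accession, with 2 residual degrees of freedom. Of the 811 genes called higher in C129, 718 also passed against C033 and against C032 separately, as did 427 of the 450 called lower. The pair tests reuse the libraries that made these calls, so this overlap is no independent support for them.

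The genes that stood highest above the other accessions were nearly silent there. BnaCnng19070D had 123 and 143 TPM in C129, 0.277 and 0.277 TPM in C033, and 4.29 and 4.79 TPM in C032. It differed by 5.65 (SE 0.83, adjusted p = 0.0388), and with accession as a block its adjusted p was 0.0865. BnaC07g08220D had 43.6 and 41.4 TPM in C129 and at most 0.266 TPM in any other library (difference 5.35, SE 0.18, adjusted p = 0.00187). In these genes the C129 levels lay far above all 4 others, while 0 and 2 hai lay close together. BnaCnng28170D, with 26.6 and 32.2 TPM, BnaA03g48320D, with 25.5 and 31.2 TPM, BnaAnng37490D, with 21.1 and 19.4 TPM, and BnaCnng75370D, with 23.1 and 22.0 TPM, did not exceed 0.591 TPM in C033 or C032. BnaC06g03370D (21.8 and 26.9 TPM) and BnaC06g03360D (24.3 and 21.1 TPM) reached at most 0.442 TPM in the other accessions. These last 2 genes lie next to each other on the minus strand of scaffold LK032527, at 172176 to 172535 and 172588 to 172981, and reads of 1 transcript could be divided between them. The files and supplementary tables give none of these 8 genes an Arabidopsis match, so no function is named.

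The genes furthest below the other accessions were abundant there. BnaC03g70790D had 1.16 and 0.671 TPM in C129, 40.8 and 39.0 TPM in C033, and 80.2 and 90.4 TPM in C032 (difference -4.97, SE 0.43, adjusted p = 0.00791). BnaA04g28930D had 7.68 and 6.55 TPM in C129 and 188 to 292 TPM in the others (difference -4.90, SE 0.21, adjusted p = 0.00187). BnaA02g21450D had 8.02 and 11.2 TPM against 211 to 367 TPM. In all 3 genes the gap between the sides was many times the gap between 0 and 2 hai. BnaC01g06430D was at 2.68 and 2.39 TPM against 82.3 to 95.8 TPM. BnaC05g00290D was at 1.07 and 1.24 TPM against 30.2 to 49.5 TPM. BnaC09g14950D was at 1.88 and 1.92 TPM in C129 and spread from 30.3 to 115 TPM in the others. BnaA06g17220D and BnaC03g40750D were each listed at 0 in 1 C129 library and at 0.279 and 0.370 TPM in the other, against 16.1 to 26.9 and 18.2 to 24.1 TPM. All 8 passed the test under all 3 scalings and with accession as a block. Genes called lower were also shorter, with a median length of 1022 bases and 24.2% single-exon genes, against 1381 bases and 12.1% over all tested genes and 1349 bases and 10.9% for genes called higher.

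**Figure D3:**
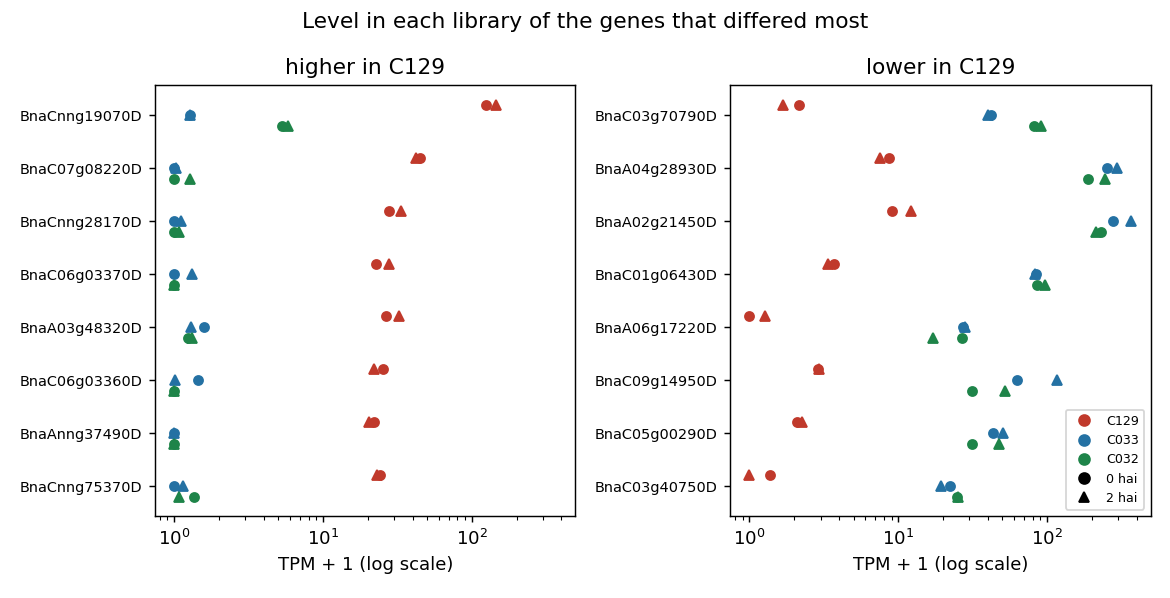
TPM + 1 (log scale) in each of the 6 libraries for the 8 genes with the largest differences in each direction (left, higher in C129, right, lower in C129), with circles for 0 hai and triangles for 2 hai. In each gene both C129 points lie apart from all 4 points of C033 and C032.

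Arabidopsis matches were at hand for 1163 tested genes, and 17 of these (1.46%) were called higher and 8 (0.688%) lower, against 2.07% and 1.15% over all tested genes. The match list covers few genes and mostly those of Arabidopsis chromosome 5. BnaCnng47160D matched AT5G56860 (GNC), a GATA transcription factor that acts downstream of gibberellin and DELLA proteins in Arabidopsis. It had 17.7 and 18.5 TPM in C129, 0.149 and 0.398 TPM in C033, and 1.02 and 1.77 TPM in C032 (difference 3.46, SE 0.37, adjusted p = 0.0122). The other 4 copies matched to GNC stayed at or below 0.4 TPM in every library of quiescent seeds. BnaA01g22780D, matched to AT4G02110, had 16.5 and 16.4 TPM in C129 and was listed at 0 in all 4 other libraries. BnaA10g13770D, matched to AT3G26010, had 3.28 and 4.37 TPM against at most 0.175 TPM.

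Some further matched genes called higher in C129 are given here, and the others of the 17 are not described. FTSZ1-1, the disulfide isomerase, ARF4 and SAG21 were chosen after their values were seen, so no common function is read from them. BnaC02g12080D, matched to genes of ribosomal protein RPS30, had 3.65 and 3.10 TPM in C129, with 0 in 3 of the other libraries and 0.253 TPM in the fourth. BnaA02g09180D, matched to a trigger factor type chaperone (AT5G55220), had 3.09 and 3.50 TPM against 0.0489 to 0.260 TPM. Its homoeologue BnaC02g13210D was at 6.75 and 5.69 TPM against 3.35 to 5.12 TPM and did not pass (adjusted p = 0.189). BnaA02g09160D, matched to the plastid division gene FTSZ1-1, had 7.32 and 7.89 TPM against 2.46 to 2.83 TPM, and its 2 other matched copies had differences of 0.53 and 0.51 that did not pass. BnaA10g13460D, matched to a protein disulfide isomerase (AT5G60640), had 32.4 and 34.1 TPM against 13.7 to 18.6 TPM. BnaA10g13260D, matched to the auxin response factor gene ARF4, had 4.58 and 4.54 TPM against 1.18 to 1.96 TPM. BnaA09g00750D, matched to SAG21, a LEA-like gene of stress and senescence, had 3.82 and 3.16 TPM against 0 to 0.504 TPM. Of these, FTSZ1-1, the disulfide isomerase, ARF4 and SAG21 were not called under all 3 scalings. With accession as a block the calls of these 4 and of RPS30 were lost, with adjusted p of 0.0953, 0.211, 0.216, 0.0735 and 0.0574 in that order.

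The matched gene that was furthest below the other accessions was BnaC04g49020D, matched to the trypsin inhibitor gene ATTI1 (AT2G43510), whose product inhibits digestive proteases of insects. It had 17.2 and 10.8 TPM in C129, 84.9 and 93.4 TPM in C033, and 114 and 128 TPM in C032 (difference -2.84, SE 0.26, adjusted p = 0.00878). BnaA09g07510D, matched to AT5G67220, had 3.15 and 3.36 TPM against 11.7 to 15.3 TPM. Its matched copy BnaC09g07390D had the opposite order, 2.34 and 2.09 TPM in C129 against 0.0837 to 0.800 TPM, but did not pass (difference 1.20, adjusted p = 0.0603). BnaA02g35180D, matched to the DREB-type transcription factor gene AT5G18450, had 11.1 and 7.31 TPM against 26.2 to 43.2 TPM. Lower still in level were BnaA02g08470D, with 1.004 and 0.850 TPM against 3.28 to 4.56 TPM, and BnaA03g09440D, with 0.143 and 0.683 TPM against 1.88 to 2.59 TPM. BnaA03g11170D, matched to the auxin transport kinase gene D6PK, had 1.26 and 1.41 TPM against 3.68 to 5.27 TPM. Its 2 other matched copies were higher in C129 in the measured values, by 0.84 and 0.49, without passing. No partner copy of the matched genes described here passed the test. With accession as a block ATTI1 and BnaA09g07510D kept their calls, whereas BnaA02g35180D, BnaA02g08470D, BnaA03g09440D and BnaA03g11170D lost theirs, with adjusted p of 0.0629, 0.0943, 0.172 and 0.186.

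The listed storage protein genes summed to 12.5 and 11.0 TPM in C129 and 53.6 to 141 TPM in the other libraries. None of the 5 tested members passed in the comparison of C129 with both accessions together, 4 of them were non-overlapping and lower (5.8% of all tested genes were), and the median difference was -1.49 against 0.35 over all tested genes. BnaA01g17200D, matched to the napin-type seed storage albumin SESA1, had 6.27 and 5.28 TPM in C129, 38.6 and 90.4 TPM in C033, and 21.9 and 26.3 TPM in C032 (difference -2.52, SE 0.57, adjusted p = 0.0773). Against C033 and against C032 separately it passed, with adjusted p of 0.00879 and 0.0312. BnaC01g19320D, a further SESA1 match, had 2.25 and 2.13 TPM in C129 against 10.7 and 16.2 TPM in C033 and 4.07 and 5.24 TPM in C032. Its adjusted p was 1.83e-08 against C033 and 0.0014 against C032, where the difference stayed under 1 on the log2 scale. BnaC07g40770D, matched to SESA2, had 1.17 and 0.971 TPM in C129, 3.73 and 12.9 TPM in C033, and 23.1 and 31.8 TPM in C032. The third SESA1 match, BnaA03g48460D, had 8.38 and 16.0 TPM in C033 alone and stayed at or below 0.795 TPM in both C129 and C032.

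Of the listed oil-body and LEA genes 0 of 4 and 0 of 3 tested members were called, and their median differences were -0.03 and -0.11. The LEA-like SAG21 match called higher above was not on the LEA list. The oleosin match BnaA07g14960D (OLEO2) had 50.7 and 56.5 TPM in C129 against 40.4 to 43.7 TPM, and its difference of 0.36, near that of the median gene, was -0.06 with median-of-ratios scaling. BnaA03g34830D, an oleosin gene, had 65.0 and 57.0 TPM against 65.7 to 81.3 TPM, with a difference of -0.24 as deposited and -0.66 with median-of-ratios scaling. The oleosin match BnaC09g27370D (OLEO3) moved likewise from -0.25 to -0.66. The dehydrin match BnaC01g00220D had 6.52 and 5.41 TPM in C129, 5.90 and 5.22 TPM in C033, and 9.08 and 10.8 TPM in C032, and its difference of -0.65 from C032 had an adjusted p of 0.00498. The caleosin match BnaC08g12280D (CLO1) had 14.8 and 12.6 TPM in C129 and 10.4 and 9.07 TPM in C033, with an adjusted p of 0.026 in that pair. The LEA4-1 match BnaC05g24760D had 21.0 and 20.0 TPM in C129 and 18.0 to 24.6 TPM in the others.

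Small heat shock protein genes, whose products are chaperones that accumulate in maturing seeds, included the most abundant members of any list. None of the 5 tested members was called, 4 were non-overlapping and lower (5.8% of all tested genes were), and the median difference was -0.97. The other 3 of the 8 listed members did not exceed 0.714 TPM. BnaC01g20320D (HSP21) had 47.0 and 43.7 TPM in C129, 71.9 and 72.8 TPM in C033, and 107 and 114 TPM in C032 (difference -0.97, SE 0.26, adjusted p = 0.0935). BnaC06g05390D (HSP26.5) had 22.7 and 24.0 TPM, 43.2 and 37.8 TPM, and 66.5 and 64.4 TPM in the same order. Both passed at an adjusted p under 0.05 in each pair that held C129, but only against C032 was either difference past 1 on the log2 scale. The study's primers for HSP17.6 amplify 3 loci together, and they are shown because these loci, taken 1 by 1, placed C032 differently, below C129 and C033 at 1 locus and above them at another.
BnaHSP17.6-F: aatcctcgaagacatgctaga
BnaHSP17.6-R: ccaggcatgtccaccacgaa

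At BnaC03g05240D the level was 186 and 170 TPM in C129, 211 and 198 TPM in C033, and 9.58 and 10.9 TPM in C032. At BnaA03g03740D it was 263 and 225 TPM in C129, 357 and 363 TPM in C033, and 809 and 674 TPM in C032. The C032 libraries were thus lowest at the C03 locus and highest at the A03 locus. BnaC02g04180D had 343 and 298 TPM in C129 and 419 to 526 TPM in the others. Summed over the 3 loci, C129 had 793 and 693 TPM, C033 1015 and 1087 TPM, and C032 1335 and 1104 TPM. These copies share primers, so reads may also be divided between them, and the sum is less exposed to that than the single loci.

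Among genes of abscisic acid and gibberellin, GNC was the 1 call of 12 tested members, and 6 members were non-overlapping and higher in C129, near the 46.3% of all tested genes. The median of the list, 0.31, was near that of all tested genes. The gibberellin receptor gene GID1a was graded on the deposited scale. BnaC05g46680D had 59.3 and 60.0 TPM in C129, 41.0 and 36.4 TPM in C033, and 17.5 and 18.8 TPM in C032 (difference 1.14, SE 0.41, adjusted p = 0.141). In the pairs its adjusted p was 0.00388 for C129 with C033, where the difference stayed under 1 on the log2 scale, 5.12e-08 for C129 with C032 and 2.84e-05 for C033 with C032, where the difference was 1.05. The difference of C129 from C033 was 0.61, beside a median of 0.34 over all tested genes in that pair. Against both accessions together it was 0.73 with median-of-ratios scaling, so the step between C129 and C033 depends in part on the scaling. The study's primers for this locus are shown because its stored level, as deposited, was graded over the accessions.
BnaGID1a-F: tcagaccaagagggacctgt
BnaGID1a-R: tggatgaggagtgagcgaag

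The DELLA gene RGL2 was at 30.6 and 36.7 TPM in C129 at BnaA05g32640D and 34.5 to 42.0 TPM in the others, and at 28.5 and 33.1 TPM at BnaC05g47760D against 19.1 to 27.8 TPM. ABI3, a regulator of seed maturation in abscisic acid signaling, was at 51.1 and 61.9 TPM against 42.5 to 60.9 TPM at BnaA03g37510D and at 34.0 and 38.2 TPM against 26.0 to 40.3 TPM at BnaC03g44820D. DOG1, a dormancy gene, was low, at 2.80 and 3.20 TPM in C129, 1.48 and 1.84 TPM in C033 and 3.86 and 3.70 TPM in C032 (BnaAnng11390D). The gibberellin synthesis genes GA1 (BnaA09g01090D, 2.88 and 3.28 TPM against 1.41 to 1.72 TPM) and KO1 (BnaC07g28980D, 23.7 and 17.56 TPM against 11.8 to 16.9 TPM) did not overlap between the sides but did not pass (adjusted p = 0.0828 and 0.265). PIL5, a light-labile repressor of germination, was at 10.9 and 11.9 TPM against 6.53 to 9.02 TPM (BnaC07g00780D, adjusted p = 0.137). The ABI3 copies differed by 0.16 and 0.21 on the deposited scale and by -0.26 and -0.20 with median-of-ratios scaling, so their direction flips with the scaling. Under the same change KO1 went from 0.40 to -0.0008, PIL5 from 0.52 to 0.13 and GA1 from 0.64 to 0.34. The RGL2 copies went from 0.45 to 0.05 at BnaC05g47760D and from -0.18 to -0.60 at BnaA05g32640D.

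Of 10 tested genes of translation, 1 was called, the RPS30 match above (adjusted p = 0.0574 with accession as a block, where the call is lost), and the median difference was 0.34. SUI1, which encodes an initiation factor, was at 2.57 and 3.42 TPM in C129, 5.75 and 4.66 TPM in C033 and 18.1 and 17.0 TPM in C032 (BnaC03g71830D). Reserve mobilisation genes of fatty acid oxidation had 0 calls among 3, and both copies of ACX2 were non-overlapping and higher in C129, as were 46.3% of all tested genes, with 7.94 and 11.3 TPM against 4.24 to 6.17 TPM at BnaC03g49190D (difference 0.73, or 0.36 with median-of-ratios scaling, adjusted p = 0.0921). Among glucosinolate genes 2 were tested and 0 called, with ESP (BnaC06g10450D) at 10.8 and 9.76 TPM against 10.9 to 17.5 TPM. None of the 11 listed NLR resistance genes reached the filter. Of the photosynthesis markers 2 of 6 were tested and 0 called.

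Some genes were listed on 1 side alone. Of the 101040 coding genes, 72 (0.0713%) were at 0 TPM in all 4 libraries of C033 and C032 and at 1 TPM or more in both C129 libraries, and 43 (0.0426%) showed the reverse. A value of 0 in this table is a listed value without a count, so no fold is given. Beside BnaAnng37490D and BnaA01g22780D, the most abundant genes seen in C129 alone were BnaC09g03400D (13.7 and 14.7 TPM), BnaC04g08330D (13.5 and 14.6 TPM) and BnaA09g41790D (11.8 and 9.77 TPM). The most abundant genes missing from C129 were BnaC09g11510D, with 9.13 and 8.41 TPM in C033 and 14.1 and 17.3 TPM in C032, BnaA08g25940D, with 5.03 to 12.6 TPM, BnaA09g05160D, with 6.14 to 8.60 TPM, BnaC05g32080D, with 4.90 to 8.65 TPM, and BnaC03g23010D, with 4.70 to 7.92 TPM. Of the 72 genes, 64 stayed under 1 TPM in all 6 later libraries of C033 and C032, and 40 kept at least 1 TPM in all 3 later C129 libraries. Of the 43 genes, 38 stayed under 1 TPM in the later C129 libraries. BnaA08g25940D was an exception and reached 6.04 TPM in C129 at 12 hai.

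Many of the differences in stored RNA were seen again once germination was under way. In the 9 libraries of 12, 36 and 72 hai, which are other libraries of the same accessions, 944 genes (2.41%) were called higher in C129 and 498 (1.27%) lower. Among the 811 genes called higher in quiescent seeds 394 were called higher again and 0 lower, or 203 higher again with median-of-ratios scaling of the later libraries. Of the 811, 796 had a later difference above 0, as had 84.5% of all tested genes. Among the 450 called lower, 239 were called lower again and 0 higher, or 259 with median-of-ratios scaling. Of the 450, 429 had a later difference below 0, against 15.5% of all tested genes. BnaC07g08220D was at 74.0, 43.6 and 44.4 TPM in C129 at 12, 36 and 72 hai and at most 0.318 TPM in the others. BnaC03g70790D was at 0.520 to 1.40 TPM in C129 and 39.4 to 112 TPM in the others. BnaC01g06430D and BnaC05g00290D likewise stayed low in C129, with later differences of -5.15 and -4.53.

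**Figure D4:**
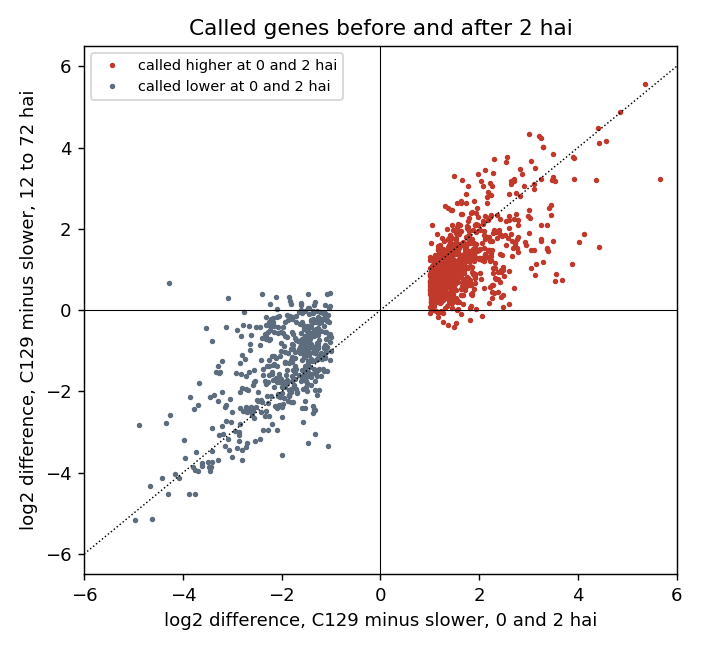
Difference of C129 from C033 and C032 (log2 of TPM + 1) at 12 to 72 hai against that at 0 and 2 hai, 1 point for each of the 811 genes called higher (red) and 450 called lower (grey) in quiescent seeds, with a dotted line where both are equal. Most points keep their sign, 796 of 811 and 429 of 450.

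In a small set the difference changed after imbibition. In a fit of all 15 libraries, the difference of C129 from the others changed between quiescent and later stages in 20 genes (0.0511%), of which 17 were called in quiescent seeds. The genes named here were chosen after their values were seen. BnaC04g04120D had 1.63 and 1.36 TPM in C129 against 9.45 to 13.4 TPM at 0 and 2 hai, and at 12 hai it had 16.6 TPM in C129, 11.0 TPM in C033 and 15.1 TPM in C032. BnaC03g57130D went from 3.29 and 2.72 TPM in C129 against 21.2 to 29.9 TPM to 108 TPM in C129 against 68.0 and 138 TPM at 12 hai. BnaA09g23730D was at 3.44 and 4.76 TPM against 48.1 to 68.6 TPM, and at 12 hai at 48.8 TPM in C129 against 49.0 and 61.9 TPM. In all 3 genes the low level of C129 was a feature of the quiescent seed and was gone by 12 hai. The reverse was seen in BnaC07g30260D, at 10.8 and 12.0 TPM in C129 against 0.211 to 0.783 TPM, which dropped to 0.336 to 2.10 TPM in C129 at later times. The GNC locus BnaCnng47160D was not among these 20 genes. Its change between stages was -1.12 (SE 0.80) and did not pass. In the limma fit of the later libraries it was again higher in C129 (difference 2.34, adjusted p = 0.0457). It reached 64.5 TPM in C129 at 12 hai, 1.60 TPM in C033 and 3.69 TPM in C032, and was at or below 3.12 TPM in every library from 36 hai. The GNC match BnaA10g10940D, near 0 in quiescent seeds and not tested, was at 15.2, 10.4 and 13.4 TPM in C129, C033 and C032 at 36 hai.

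Called genes were spread over all chromosomes. In the A subgenome 411 genes were called higher and 250 lower among 18518 tested, and in the C subgenome 398 and 195 among 20546. Over all tested genes 2.07% were called higher and 1.15% lower. Chromosome A05 had the largest share of genes called higher among placed chromosomes, 4.23%, and C08 the smallest share called lower, 0.154%. There were 22 runs of at least 3 neighbouring tested genes called in the same direction. Runs of 5 lower genes lay at BnaC01g06400D to BnaC01g06460D and BnaA09g23710D to BnaA09g23760D, and a run of 5 higher genes at BnaA05g00540D to BnaA05g00600D. All 5 genes of the C01 run were called lower again after 2 hai, whereas 0 of 5 were in the A09 run, which holds BnaA09g23730D.

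Whole stretches of chromosome differed between accessions, and most of them set apart C032 or C033 rather than C129. The stretches were sought after the data had been seen, as windows of 20 neighbouring tested genes whose median difference, relative to the median of all tested genes, passed 1 on the log2 scale. Relative medians of the windows ran from -2.15 to 1.48 for C129 against the other accessions and from -2.92 to 2.57 for C033 against C032. The most extended stretch was the start of chromosome C03, from BnaC03g00010D to BnaC03g07110D, on scaffolds LK031823 and LK031791. Here 324 tested genes had a relative median difference of C129 from C032 of 1.97 and 2.09 on the 2 scaffolds, and of C129 from C033 of 0.05 and 0.00. C129 was called higher than C032 in 290 of the 324 genes, and C033 higher than C032 in 263, whereas 26 differed between C129 and C033. The median level on scaffold LK031823 was 6.62 and 7.54 TPM in C129, 4.91 and 4.68 TPM in C033, and 0.397 and 0.507 TPM in C032. In the comparison of C129 with both others together only 5 of the 324 genes were called.

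**Figure D5:**
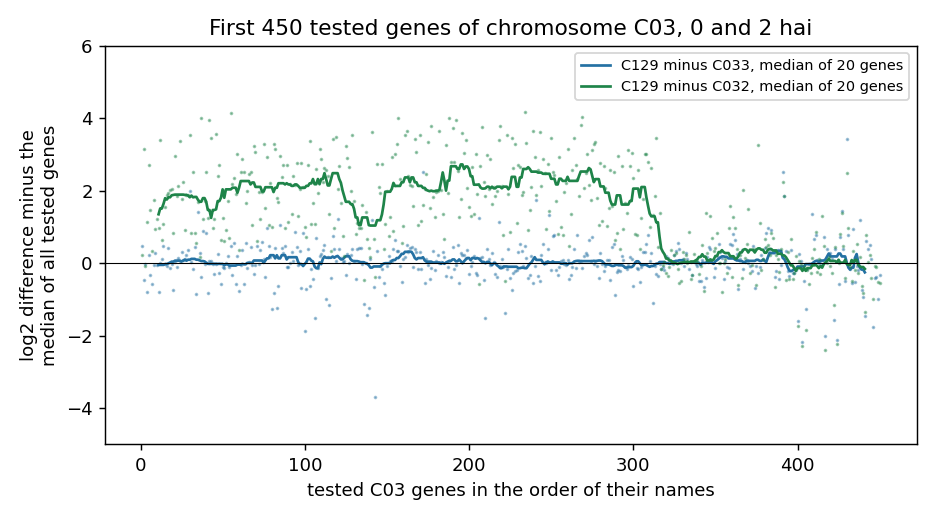
Difference of C129 from C033 (blue) and from C032 (green) at 0 and 2 hai for the first 450 tested genes of chromosome C03, in the order of their names, as log2 of TPM + 1 minus the median of all tested genes. Points are genes and lines are running medians of 20 genes, and the green line sits near 2 over the first stretch and then joins the blue line at 0.

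The HSP17.6 locus BnaC03g05240D lies in this C03 stretch. On the homoeologous A03 chromosome the order of C033 and C032 was opposite in the stretches that follow. C033 was below C032 by a relative median of 1.16 over 43 tested genes from BnaA03g00040D to BnaA03g00720D and by 1.03 over 68 genes from BnaA03g02010D to BnaA03g03170D. By its name, the HSP17.6 locus BnaA03g03740D lies in a further stretch of 28 tested genes, BnaA03g03510D to BnaA03g04030D. Its relative median was -0.66 for C033 against C032. There C129 was below both, with relative medians of -0.61 against C033 and -1.28 against C032, and 5 genes called lower and 0 higher. The start of chromosome C09, BnaC09g00020D to BnaC09g01040D, was near silent in both C129 (median 0.459 and 0.420 TPM) and C033 (0.134 and 0.149 TPM) but not in C032 (5.55 and 6.95 TPM). The end of C01, BnaC01g39840D to BnaC01g40640D, had median levels of 0.310 and 0.169 TPM in C129, 7.64 and 8.04 TPM in C033, and 0.995 and 1.38 TPM in C032. Its relative median was -2.95 for C129 against C033 and -0.76 against C032. In each of these stretches except that with the A03 HSP17.6 locus, 1 accession stood apart and the remaining 2 were closer to each other.

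Fewer stretches set C129 apart from both accessions, and 3 are given here beside the A03 stretch with HSP17.6, where C129 was also below both. From BnaA03g09070D to BnaA03g09680D, on scaffold LK031856 at 518406 to 751844, 30 tested genes had a relative median of -0.94 against C033 and -0.95 against C032, with 8 genes called lower and 0 higher. The median level there was 1.47 and 1.78 TPM in C129, 3.31 and 3.01 TPM in C033, and 2.43 and 3.05 TPM in C032. From BnaC01g38820D to BnaC01g39450D, 25 genes had relative medians of -0.97 and -2.15, with 10 called lower. From BnaC01g06250D to BnaC01g06690D, on scaffold LK031789, 23 genes had relative medians of -1.01 and -0.74, with 6 called lower, among them BnaC01g06430D. After 2 hai the relative medians of these 3 stretches were -0.80, -1.54 and -1.26. The stretches were thus below the other accessions again after 2 hai.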

How the data were processed

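Total RNA of seeds was extracted by the authors, and cDNA libraries made from it with an Illumina TruSeq kit were sequenced as 100-base paired reads. The reads were mapped with HISAT and quantified with StringTie on the published B. napus assembly. The authors deposited TPM and mean coverage (signal) for each gene and library. TPM was used as deposited. Coverage served only for read equivalents (coverage times length over 100). TPM are not counts, so no count model was fitted. Of the rows, 4236 non-coding ones were left out, and 0 columns were unmapped. Coordinates are those of the deposited table. Arabidopsis matches came from the supplementary tables, which cover 3060 coding genes and were shortened, so no list by product name was made. Symbols in lists rest on these matches. No genome sequence was used here, and the primers were copied from the supplementary primer table.

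log2(TPM + 1) was fitted with limma 3.58.1 (trend and robust) in R 4.3.3 on side and time for the 39171 genes that reached 1 TPM in 2 or more of the 6 libraries, which left 3 residual degrees of freedom. Calls needed an adjusted p under 0.05 and a difference over 1 (log2). Later libraries were fitted alike, and accession pairs with accession and time as terms. Scripts were tested on simulated data. Alternatives covered pseudocount, filter, scaling, time, accession and each library. Nothing in the sources used here says that the libraries of an accession came from separate plants or seed lots, so p-values measure the spread between these libraries. An exact permutation of 2 against 4 libraries cannot reach 0.05. Depth was 19360693 to 38502057 read equivalents. Named genes were the 8 largest called differences in each direction without overlap, the 5 largest in each direction with an Arabidopsis match, the 5 most abundant genes, the 5 most abundant genes seen on 1 side in each direction, and list members. Other names were chosen after their values were seen. Members and lists were chosen with earlier results of these data known.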

Additional observations from a re-analysis of the deposited data

Results flagged for a closer look

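Among the 4 libraries of C033 and C032, 1 value lay far from the other 3 in 11 of 117 genes checked, and chance alone does so in about 1 of 20 groups. The set-apart values were 0.266 TPM in BnaC07g08220D, 0.315 in BnaC06g03370D, 0.442 in BnaC06g03360D, 0.253 in BnaC02g12080D, 0.008 in BnaA05g23800D, 1.27 in BnaA03g58170D, 95.8 in BnaC01g06430D, 16.1 in BnaA06g17220D, 56.5 in BnaC09g27370D, 1.41 in BnaA09g01090D and 11.8 in BnaC07g28980D.

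The difference of C129 from the other accessions changed between quiescent and later stages in 20 genes by the test of that change itself. It rose (log2 scale) by 3.09 in BnaA09g23730D, 2.93 in BnaC05g17420D, 2.73 in BnaC03g57130D, 2.55 in BnaC06g05660D, 2.44 in BnaA08g24590D, 2.39 in BnaC04g04120D, 1.92 in BnaC01g29830D, 1.86 in BnaC01g11560D, 1.81 in BnaA05g23800D, 1.78 in BnaC07g24090D, 1.74 in BnaC07g34510D, 1.72 in BnaA05g17890D, 1.69 in BnaCnng60150D and 1.48 in BnaA02g33770D. It changed by -2.40 in BnaA06g18670D, -2.29 in BnaA07g33970D, -2.27 in BnaC07g30260D, -1.98 in BnaC05g29760D, -1.80 in BnaA03g10960D and -1.73 in BnaC05g41600D.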

How the results depend on the processing

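The counts of 811 genes higher and 450 lower in C129 moved with most choices. Higher genes numbered 501 with a pseudocount of 0.1 TPM, 320 with 5 TPM, 381 with the stricter filter of 5 TPM, 538 with coding genes at a common total, 481 when that total left out the most abundant gene, 306 with median-of-ratios scaling (also 306 under all 3 scalings), 1284 with no time term, 2344 with 3 accessions as terms, 234 with accession as a block, 3280 without C033 and 2755 without C032. Lower genes numbered 230 with a pseudocount of 5 TPM, 294 with the stricter filter, 1031 with 3 accessions as terms, 209 with accession as a block, 1515 without C033 and 1204 without C032. With the 0 hai or the 2 hai libraries alone, limma called 0 genes in either direction, with 1211 and 1238 higher and 720 and 632 lower at an unadjusted p under 0.05 and a difference over 1. With 1 library left out in turn, the counts ran from 0 to 396 higher and from 0 to 299 lower, with 0 or 1 when either C129 library was left out. The cause of these moves was not tested beyond the smaller number of libraries. With median-of-ratios scaling C129 was higher than C033 in 1242 genes and lower in 1839, and higher than C032 in 1785 and lower in 2235, while 203 higher genes were called again after 2 hai. Genes at 5 TPM or more on 1 side alone numbered 15 in C129 and 4 in the others. Windows of 10 and 40 genes gave 12 and 3 stretches above and 24 and 3 below, against 5 and 9. The scaling without the most abundant gene, the count over all 3 scalings, the paired scaling and the windows were chosen after seeing the data. None of the 49 named called genes changed sign under any of these alternatives, and 29 were past the threshold with accession as a block. Levels of called genes did not overlap between the sides, which left little room for a change of sign. The kept signs are thus no separate support. Time as a term and accession as a block used the libraries that an accession or a time shares. No paired analysis was possible because the labels give no replicate numbers, with 1 library for each accession and time.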

Other observations

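In 3 genes named for the change between stages, a difference between low levels in the quiescent seed widened on the scale of log2(TPM + 1). These genes were chosen after their values were seen. That scale compresses differences between values near or under 1 TPM, and its part in the widening was not tested. BnaC05g17420D was at 1.49 and 2.36 TPM in C129 and at most 0.338 TPM in the others at 0 and 2 hai, and at 14.3, 32.8 and 25.1 TPM in C129 at 12, 36 and 72 hai against at most 0.609 TPM. BnaA03g10960D was at 0 and 0.314 TPM in C129 against 2.09 to 2.30 TPM, and later at 0.327 to 0.464 TPM against 8.78 to 16.3 TPM. BnaA07g33970D was at 0.191 and 0.204 TPM against 1.34 to 1.62 TPM, and later at 0.929 to 2.82 TPM against 12.7 to 48.5 TPM.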
